A study of Mus musculus with 6 samples.

Results

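Myoblast fusion, the step in which mononucleated muscle precursors join into multinucleated fibres, was described here through 10 genes chosen by name: the muscle-specific fusogens Mymk and Mymx, the adhesion genes Cdh15, Jam2 and Jam3, the adhesion receptors Adgrb1 and Adgrb3, and the membrane genes Cav3, Myof and Dysf. All 10 were among the 55536 gene identifiers counted, and 8 of them were among the 22404 genes with enough reads to be tested. The RNA-seq libraries were from satellite cells, the stem cells of skeletal muscle, in 3 control samples (Pax7CreErt2;Hira fl/+, named WT in the labels) and 3 cKO samples (Pax7CreErt2;Hira fl/fl). Hira encodes a chaperone that deposits the histone variant H3.3. All mice were C57BL/6J males of 8 to 12 weeks that carried a tamoxifen-inducible Cre under Pax7, so recombination was limited to Pax7-expressing cells. The controls, too, carried 1 floxed Hira allele, and both groups had a tamoxifen diet for 2 weeks, 1 week of regular food and BaCl2 injury of the tibialis anterior muscle. Cells were sorted 5 days after injury as CD34+ ITGA7+ CD45- TER119- SCA1- and cultured for 48 h on Matrigel in medium with serum and basic FGF.

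Fusion begins when differentiating myoblasts recognise and adhere to each other. It goes on with remodelling of cortical actin and exposure of phosphatidylserine at the contact, and ends with the merging of the plasma membranes. Myomaker, encoded by Mymk, is a multipass membrane protein needed for the mixing of the outer membrane leaflets, and myomixer, the micropeptide encoded by Mymx, acts after it in the opening of a pore. Both are made almost exclusively in differentiating muscle, where the myogenic regulatory factors drive their genes. Cadherins, JAM proteins and ferlins such as myoferlin are, in contrast, shared with many tissues to differing extents, although M-cadherin (Cdh15), caveolin-3 (Cav3) and dysferlin (Dysf) are strongest in muscle.

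The libraries held 47944477 to 63323577 reads on genes. Hira counts were 375, 348 and 341 in the control samples and 161, 293 and 272 in the cKO samples, a log2 fold change of -0.43 (SE 0.12, adjusted p = 0.0237). This and each adjusted p hereafter comes from the quasi-likelihood test of edgeR, corrected over all tested genes by the Benjamini-Hochberg method. The call was lost without control 1 (adjusted p = 0.104), and 44.7% of the exonic bases of Hira also belong to the same-strand model Gm28539, which had 0 counts in each sample. These counts cover the whole gene. By RT-qPCR the paper describes a strong fall of Hira RNA in satellite cells of cKO mice, in which it could not detect the protein. The summed level of 8 satellite cell markers was 1760 to 1820 counts per 1000000 counted reads (CPM) in the control and 1640 to 1660 CPM in the cKO samples. Of the 8 markers, 6 were lower in cKO samples, and Myod1 and Itga7 made up most of the sum. Genes used as markers of other cells of muscle also moved with genotype. All 10 macrophage markers rose in cKO samples, with a summed level of 139 to 143 CPM in control and 295 to 345 CPM in cKO samples, although CD45+ cells were excluded by the sort. Fibroblast markers summed to 1110 to 1190 CPM and 1530 to 1700 CPM, with 6 of 8 tested genes higher. Most of this sum was Col1a2 and Col3a1, whose log2 fold changes were 0.26 and 0.21. Those of Col1a1, Pdgfra, Dcn and Thy1 were larger, at 1.29, 1.15, 1.10 and 1.06. Endothelial markers summed to 18.1 to 20.6 CPM and 28.4 to 34.1 CPM, with 5 of 10 higher (2 without control 2, control 3 or cKO 2, and 3 with DESeq2). Mural markers summed to 6330 to 6390 CPM and 6290 to 6560 CPM, with 4 of 6 tested genes higher (2 without any 1 control or cKO 3), the other two lower (1 without control 1 or 2, and 0 without control 3) and Kcnj8 at 3 counts or fewer in each sample. Most of this sum was Acta2 and Des, and Des, which was lower, is also in the differentiation list below. Among the higher mural genes, mean Myh11 went from 28.1 to 56.2 CPM and Rgs5 from 17.3 to 27.3 CPM. Whether other cells or the satellite cells themselves made these marker transcripts was not tested, nor was their part in the results that follow. In bulk RNA, fewer cells of a type cannot be told apart from less RNA per cell. The paper proposes that genes of other lineages are expressed within satellite cells lacking Hira, and reports VE-cadherin (Cdh5) staining of such cells. It also reports a rise of other-lineage genes in the myoblast line C2C12 without Hira, and for some of them its prevention by Mll1 or Mll2 deletion.

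Of the 8 tested fusion genes, 4 were lower in the cKO samples (Mymk, Mymx, Jam2 and Cav3), 1 was higher (Myof) and 3 did not pass the test (Cdh15, Jam3 and Dysf), at an adjusted p under 0.05. Across all genes tested, 15.8% passed in either direction, 6.46% as lower and 9.38% as higher. The median log2 fold change was -0.09 over the 8 genes and -0.0011 over all genes tested. Both fusogens passed in each of the 6 fits that left out 1 sample. The Jam2 and Cav3 calls each held in 3 of those fits and the Myof call in 5, so the count of 4 lower genes rests on the fusogens alone where control 1, control 2 or cKO 3 is left out (2 lower genes in each case).

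To set the genes in order of abundance, CPM was divided by the number of 75-base windows that lie inside single exons of each gene, in kilobases, because the reads were placed by an aligner that does not split them over exon junctions. On this per-length scale Mymk had the highest level among the 10 genes, at 295 ± 12.7 (SD, n = 3) in control and 254 ± 16.4 in cKO samples. Cav3 came next at 147 ± 6.45 and 129 ± 13.7. Mymx and Cdh15 were neighbours whose order differed between the genotypes. In control samples Mymx (79.4 ± 1.85) lay above Cdh15 (72.6 ± 3.82) with no overlap of their ranges, whereas in cKO samples Cdh15 (76.1 ± 3.66) lay above Mymx (66.1 ± 2.19), again with no overlap. This exchange depended on the length used. Divided by the whole exonic length, Mymx still lay above Cdh15 in control samples (62.3 ± 1.45 against 49.5 ± 2.61), but in cKO samples they overlapped (51.8 ± 1.72 against 51.8 ± 2.49) and could not be ordered. Myof followed at 41.1 ± 0.616 in control and 45.4 ± 0.534 in cKO samples. In control samples Dysf (22.3 ± 0.196) and Jam3 (21.7 ± 0.974) overlapped and could not be ordered, and Jam2 was lowest of the 8 tested genes at 15.7 ± 0.143. With the same change of length, Dysf fell behind Jam3 and Jam2, at 10.8 against 16.4 and 13.8, since its many short exons leave only 48.4% of its exonic bases as window starts.

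**Figure D1:**
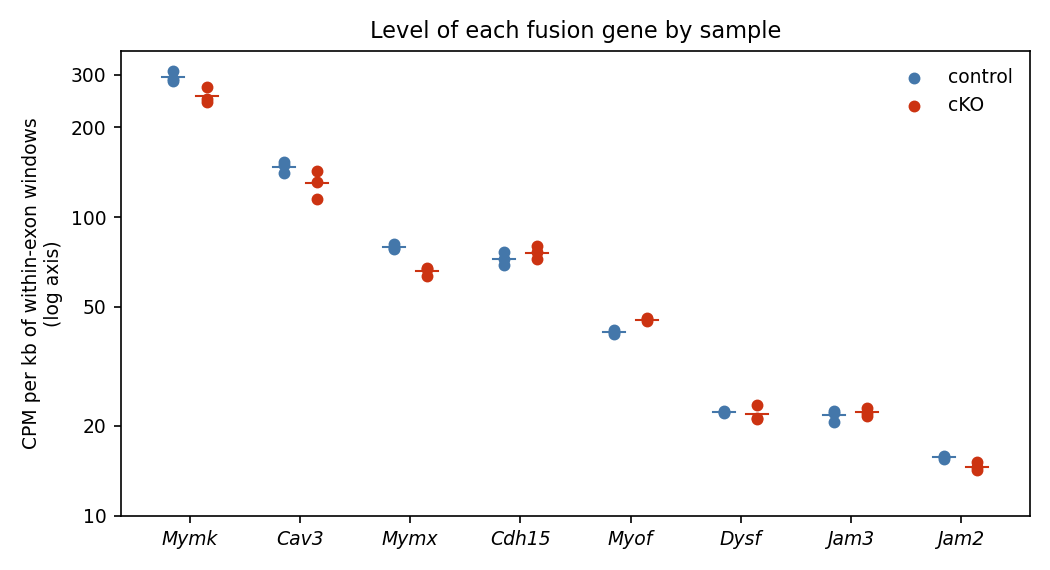
Per-length level (CPM per kilobase of 75-base windows inside exons, log axis) of the 8 tested fusion genes in each control (blue) and cKO (red) sample, with a line at each group mean. Mymk leads in both groups (295 in control, 254 in cKO), and Mymx lies above Cdh15 in control and below it in cKO samples on this length, but overlaps it in cKO samples on the whole exonic length.

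Mymk (ENSMUSG00000009214, chr2:27061636-27072179, minus strand, mm10) was measured at 330, 309 and 304 CPM in the control samples and at 291, 264 and 258 CPM in the cKO samples. The highest cKO value was under the lowest control value. The log2 fold change was -0.24 (SE 0.04, adjusted p = 0.00144), a level that fell by 15.2%, and it ranged from -0.29 to -0.20 when each sample was left out in turn.

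Mymx (ENSMUSG00000079471, chr17:45600971-45602102, minus strand) stood at 62.7, 65.6 and 63.6 CPM in control samples and at 54.3, 51.2 and 54.1 CPM in cKO samples. The groups were again separate, with less spread within each group than for Mymk. Its log2 fold change of -0.29 (SE 0.04, adjusted p = 6.95e-05) was the largest of the 8, with a range of -0.31 to -0.26 when samples were left out. The ratio of Mymk to Mymx counts within a sample was 2.39, 2.24 and 2.26 on the log2 scale in control and 2.42, 2.37 and 2.25 in cKO samples, with overlapping groups.

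The fusogens were also set against Myog, the myogenic regulatory factor of differentiating cells, which itself fell from 2110 ± 15.8 to 1880 ± 67.1 CPM (SD, n = 3 each; log2 fold change -0.20, SE 0.03, adjusted p = 0.000626). The log2 ratio of Mymk to Myog was -2.69, -2.77 and -2.79 in control and -2.75, -2.79 and -2.84 in cKO samples, a difference of -0.04 with overlapping groups. That of Mymx to Myog was -5.08, -5.01 and -5.04 in control and -5.17, -5.16 and -5.09 in cKO samples. These groups did not overlap, and their means differed by -0.09.

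Among the adhesion genes, Cdh15 encodes M-cadherin, a calcium-dependent adhesion protein of satellite cells and myoblasts. Cdh15 (ENSMUSG00000031962, chr8:122847966-122867397, plus strand) stood at 170, 160 and 153 CPM in control and 160, 169 and 176 CPM in cKO samples. The groups overlapped, and no difference passed the test (log2 fold change 0.04, SE 0.04, adjusted p = 0.572). It passed in none of the 6 fits that left out a sample.

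Jam2 and Jam3 encode immunoglobulin-domain proteins that bind each other across cell contacts, in endothelium and epithelium as well as between muscle precursors. Jam2 (ENSMUSG00000053062, chr16:84774123-84825928, plus strand) was at 83.7, 83.9 and 82.5 CPM in control samples and at 75.6, 80.6 and 77.0 CPM in cKO samples. Although the groups did not overlap, its fall was small (log2 fold change -0.12, SE 0.03, adjusted p = 0.0166) and missed the threshold without control 1 (adjusted p = 0.061), control 2 (0.0778) or cKO 3 (0.0576), and with scaling by total counts alone (log2 fold change -0.10, adjusted p = 0.0587).

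Jam3 (ENSMUSG00000031990, chr9:27097384-27155421, minus strand) was at 53.4, 54.0 and 49.7 CPM in control and 55.5, 52.0 and 53.1 CPM in cKO samples. The groups overlapped, with a log2 fold change of 0.01 (SE 0.04, adjusted p = 0.949) whose sign depended on which sample was left out (-0.03 to 0.03). Of its exonic bases, 36.2% also lie in the antisense gene Gm48796, and reads of the pair cannot be told apart unless they were counted by strand, a setting that is not given in the sources used here. Gm48796 had 658, 684 and 741 counts in control and 626, 883 and 869 counts in cKO samples.

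**Figure D2:**
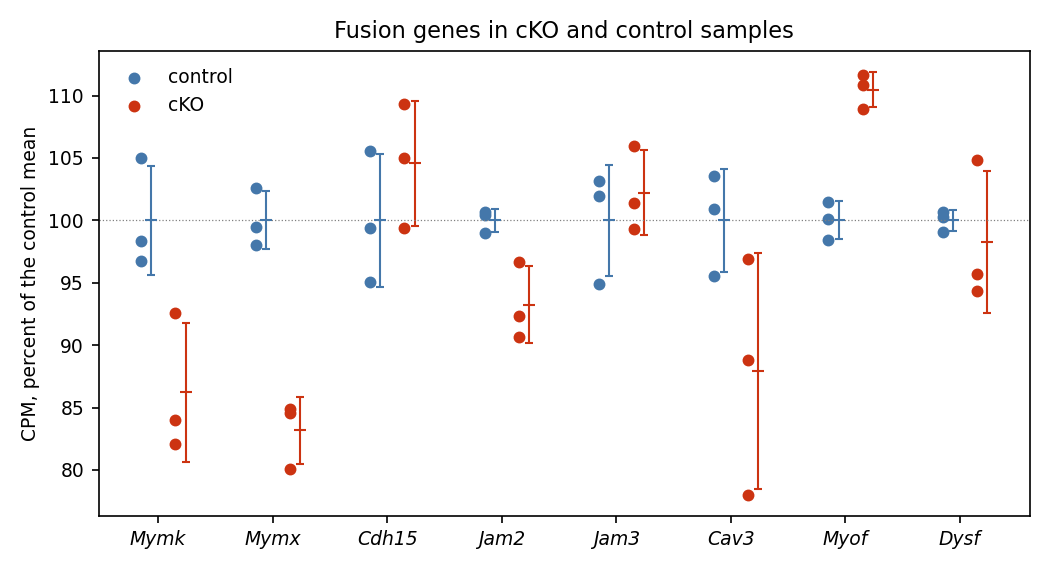
Level of each tested fusion gene in each control (blue) and cKO (red) sample, as a percent of that gene's control mean in CPM, with bars for the group mean and SD (n = 3). The groups do not overlap for 4 of the 8 genes, against 31.4% of all genes tested: Mymk, Mymx and Jam2 lie lower and Myof higher in all cKO samples, whereas the samples overlap for Cdh15, Jam3, Cav3 and Dysf.

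To contrast muscle-specific fusogens with widely expressed adhesion genes without any scaling between samples, the summed counts of Mymk and Mymx were divided by those of Jam2 and Jam3 within each sample. The log2 ratio was 1.52, 1.44 and 1.48 in control and 1.40, 1.25 and 1.26 in cKO samples. All cKO samples lay below all control samples, with means of 1.48 ± 0.04 and 1.30 ± 0.08 (SD, n = 3) and a difference of -0.17. No test was run on this ratio, which is a score over genes chosen with earlier results known. An exact permutation test of 3 samples against 3 would not go below a p of 0.1. The difference was -0.21 when each gene had equal weight and -0.24 when Cdh15 was added to the adhesion genes.

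The contrast differed by adhesion partner. Jam3 counts may hold reads of the antisense gene Gm48796, and whether this bears on the ratios with Jam3 was not tested. Over Jam3, the log2 ratio of Mymk was 2.63, 2.52 and 2.61 in control and 2.39, 2.35 and 2.28 in cKO samples, a difference of -0.25 with separate groups, and that of Mymx differed by -0.30. Over Jam2, which fell itself, the difference was -0.11 for Mymk with overlapping groups and -0.16 for Mymx with separate ones. The Mymk to Cdh15 ratio was 0.96, 0.95 and 0.99 in control and 0.86, 0.65 and 0.55 in cKO samples, and here too the groups were separate.

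**Figure D3:**
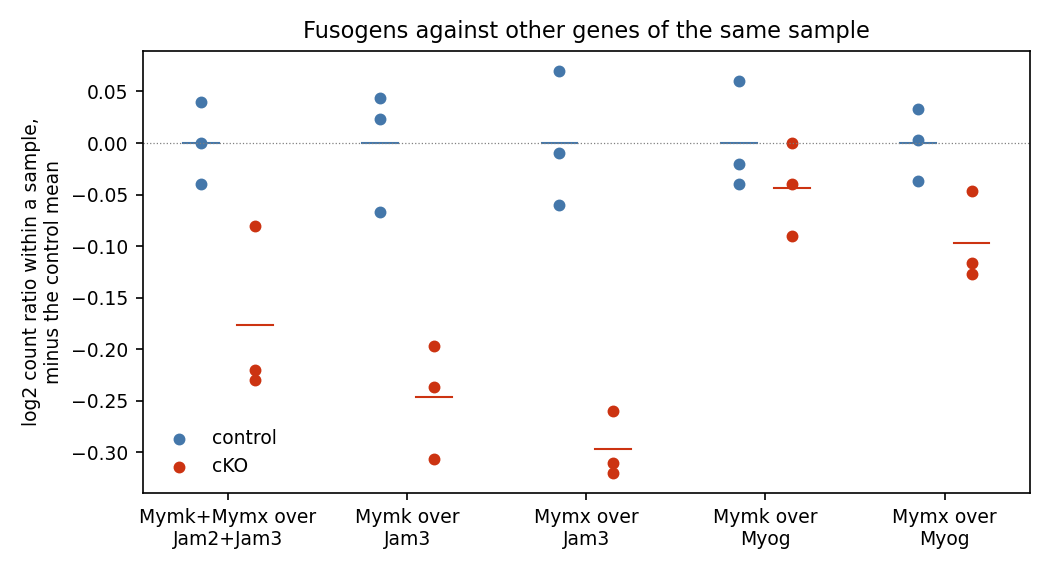
Log2 ratio of the counts of a fusogen to those of another gene in the same sample, minus the control mean of that ratio, in control (blue) and cKO (red) samples with a line at each mean. The ratios to Jam2 plus Jam3 and to Jam3 lie lower in all cKO samples (by 0.17 to 0.30 on average). Jam3 counts may hold antisense reads of Gm48796. The ratio of Mymk to Myog overlaps, while that of Mymx to Myog lies lower in all cKO samples (means differing by -0.09).

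Adgrb1 and Adgrb3 encode the adhesion receptors BAI1 and BAI3, which act at fusing membranes upstream of the ELMO and DOCK exchange factors and are also known from brain. Neither had enough reads for a test. Adgrb1 (ENSMUSG00000034730, chr15:74516195-74589465, plus strand) had 4, 5 and 1 counts in control and 1, 6 and 5 counts in cKO samples. Adgrb3 (ENSMUSG00000033569, chr1:25067476-25829707, minus strand) had 2, 0 and 0 counts in control and 0, 0 and 1 counts in cKO samples, within the 3 counts that a count of 0 allows (0.0474 to 0.0626 CPM in these libraries). A fall or a small difference in either gene was thus not detectable at this depth. The neuronal markers Snap25 and Rbfox3 likewise had no more than 2 counts in any sample, and none of the 4 tested of the 9 neural and glial markers passed with edgeR or DESeq2, although 3 of them were higher at an unadjusted p under 0.05 with edgeR (summed level 9.19 to 9.8 CPM in control and 11.1 to 13.3 CPM in cKO samples).

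Cav3 encodes the caveolin of muscle fibres, an organiser of membrane invaginations. Cav3 (ENSMUSG00000062694, chr6:112459505-112472872, plus strand) was at 154, 150 and 142 CPM in control and 144, 116 and 132 CPM in cKO samples. The highest cKO sample overlapped the lowest control sample. The log2 fold change was -0.21 (SE 0.06, adjusted p = 0.0246), from -0.29 to -0.13 when samples were left out. DESeq2 gave a like size, -0.22, that did not pass (adjusted p = 0.149), and the call was also lost without control 1 (adjusted p = 0.0911), control 2 (0.0848) or cKO 3 (0.0557).

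Myof and Dysf encode ferlins, large membrane proteins with calcium-binding C2 domains. Myoferlin serves fusion and vesicle traffic, and dysferlin the resealing of the fibre membrane. Myof (ENSMUSG00000048612, chr19:37899036-38043577, minus strand) was at 357, 368 and 363 CPM in control and at 402, 405 and 395 CPM in cKO samples, the only one of the 8 tested genes that passed as higher. The groups were well apart, with a log2 fold change of 0.12 (SE 0.03, adjusted p = 0.00968) and a rise of 8.56%. It was lost without control 1 (adjusted p = 0.061). Myof is known to be expressed in fibroblasts and endothelium too, of whose markers 6 of 8 and 5 of 10 were higher in the same samples as given above. Whether such cells bear on the rise of Myof was not tested.

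Dysf (ENSMUSG00000033788, chr6:84008590-84211060, plus strand) was at 90.5, 90.1 and 89.0 CPM in control and 94.2, 84.8 and 86.0 CPM in cKO samples. The cKO samples lay on both sides of the narrow control range, and no difference passed (log2 fold change -0.05, SE 0.04, adjusted p = 0.48). Without cKO 1, the highest sample, it was called lower (-0.10, adjusted p = 0.038). Of its exonic bases, 5.49% also lie in the antisense genes Gm15475 and Gm33024, which had no more than 263 counts in any sample.

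The regions around the start sites of a gene that fell (Cav3), one that did not pass (Cdh15) and one that rose (Myof) are printed to show how they differ in E-boxes, the letters CANNTG that myogenic regulatory factors bind. Each runs from 250 bases before to 50 bases after the start site of the RefSeq annotation of GRCm38.p6, 5′ to 3′ on the strand of the gene, with CANNTG in capitals. These letters are their own reverse complement, so both strands were searched at once.

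Cav3, chr6:112459255-112459554, plus strand: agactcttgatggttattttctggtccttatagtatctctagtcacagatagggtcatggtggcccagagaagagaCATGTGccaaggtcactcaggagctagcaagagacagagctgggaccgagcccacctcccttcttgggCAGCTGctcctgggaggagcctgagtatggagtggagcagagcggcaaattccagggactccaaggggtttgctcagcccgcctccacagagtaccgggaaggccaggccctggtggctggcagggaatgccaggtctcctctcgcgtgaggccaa
Cdh15, chr8:122848124-122848423, plus strand: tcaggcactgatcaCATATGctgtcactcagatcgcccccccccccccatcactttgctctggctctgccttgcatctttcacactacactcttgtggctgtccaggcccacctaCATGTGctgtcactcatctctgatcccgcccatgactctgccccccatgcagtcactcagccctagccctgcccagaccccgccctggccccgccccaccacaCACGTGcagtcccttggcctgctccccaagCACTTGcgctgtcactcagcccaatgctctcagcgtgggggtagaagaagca
Myof, chr19:38043528-38043827, minus strand: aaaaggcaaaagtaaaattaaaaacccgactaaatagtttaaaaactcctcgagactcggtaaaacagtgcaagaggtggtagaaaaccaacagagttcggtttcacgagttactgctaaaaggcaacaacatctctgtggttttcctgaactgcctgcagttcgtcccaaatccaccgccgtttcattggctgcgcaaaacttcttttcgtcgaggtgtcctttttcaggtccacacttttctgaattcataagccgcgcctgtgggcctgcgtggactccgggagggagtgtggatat

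The Cav3 window held 2 matches, 174 and 106 bases before the start site. The Cdh15 window held 4, at 236, 135, 32 and 2 bases before its RefSeq start site, and the Myof window held 0. The Cdh15 window lies wholly inside the GENCODE gene, which begins at 122847966, so it is not upstream of that start. For Cav3 and Myof both annotations give the same start site. Of 32851 such windows of 300 bases, 72.3% held at least 1 match, 39.6% at least 2 and 6.49% at least 4. Cdh15, with the most matches among the 5 genes that had an entry, did not pass the test. A match is a description of the letters only, and its absence says nothing of binding elsewhere.

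By the distance between profiles of log2 CPM over the 6 samples, each centred on its control mean, the gene most like Mymk among 10480 genes with at least 10 CPM was Lbx1, a homeobox factor of migrating limb muscle precursors (distance 0.0184, against a median of 0.178). Mtmr1, a phosphoinositide phosphatase, and Enpp4, a membrane ectoenzyme, came next at 0.0316 and 0.0334. Mymx ranked at place 337 from Mymk, at 0.0787. The genes most like Mymx were the deubiquitinase gene Usp28 (0.0267), Ttc9 (0.0271) and Timm10 of mitochondrial protein import (0.0300), against a median of 0.204.

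The other genes of fusion were read from 5 lists, without the 10 genes above. Of 90 tested genes among 96, 19 were higher and 13 lower in cKO samples, with a median log2 fold change of 0.02. The 13 lower became 7 without control 2 or control 3. Of those calls, 13 higher and 7 lower ones passed in each of the 6 fits that left out a sample.

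In the list of further adhesion genes, 4 of 15 tested genes were lower and 1 was higher (2 without cKO 1), with a median of -0.06. The lower genes were Vcam1, a ligand of integrins (log2 fold change -0.19), Ptgfrn, a tetraspanin partner (-0.15), Ncam1, a homophilic adhesion molecule (-0.14) and Itga7, the laminin receptor used in the sort (-0.12, called in 1 of 6 fits that left out a sample). Vcam1 and Itga7 also stand in the satellite cell list, of which 6 of 8 genes fell. The higher gene was Adam12, a metalloprotease, which went from 78.9 ± 0.667 to 101 ± 9.22 CPM (SD, n = 3; log2 fold change 0.33, SE 0.05, adjusted p = 0.000187). Adam12 is also known from mesenchymal cells of injured muscle.

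Of the 28 genes of actin remodelling, 22 did not pass, 4 were higher and 2 lower, with a median of 0.02. The 4 higher genes were the exchange factor genes Dock5 (log2 fold change 0.45) and Dock1 (0.16), their partner Elmo2 (0.14) and the kinase gene Pak3 (0.29), and the 2 lower genes were Wasl, an activator of actin branching (-0.14), and Pak1, a Rac effector (-0.12). Dock5 and Pak3 passed in each of the 6 fits that left out a sample, and the other 4 passed in 1 or 2. The count of 4 higher genes became 2 without control 1, control 2, cKO 2 or cKO 3 and 8 without cKO 1, and that of 2 lower became 0 without control 2, control 3 or cKO 1, 1 without control 1 or cKO 3 and 3 without cKO 2.

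In the list on phosphatidylserine exposure and recognition, 6 of 11 tested genes were higher and 0 lower (0 also with DESeq2 or at an unadjusted p under 0.05 with edgeR), with a median of 0.13. Cd36, a scavenger receptor that binds phosphatidylserine, went from 19.2 ± 0.787 to 44.1 ± 1.47 CPM (SD, n = 3; log2 fold change 1.18, SE 0.04, adjusted p = 2.26e-10). Gulp1, an engulfment adaptor, rose by 0.45, Mfge8, a bridging protein, by 0.33, and Anxa1, an annexin, by 0.32. Cd36 and Mfge8 are known from macrophages and endothelium as well. In the same samples the median log2 fold change of the macrophage markers was 1.11, Lyz2 going from 80.4 to 186 CPM and Ptprc, which encodes CD45, from 1.43 to 2.83 CPM. Whether macrophages bear on the changes of this list was not tested.

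The list of caveolae and membrane repair held changes in both directions, with 5 of 21 tested genes higher, 4 lower and a median of -0.02. The higher count was 3 with DESeq2 or without control 2, control 3, cKO 2 or cKO 3. Cavin4, the muscle cavin, went from 616 ± 9.41 to 500 ± 29.5 CPM (SD, n = 3; log2 fold change -0.32, SE 0.04, adjusted p = 4.46e-05), and Capn3, the muscle calpain, fell by 0.22. Cavin2 rose by 0.51, from 194 ± 5.49 to 282 ± 6.87 CPM (SE 0.03, adjusted p = 2.59e-08), and Capn2, a widely expressed calpain, by 0.23. Capn1 (-0.15) and Anxa6 (-0.10) were lower, while Cav2 (0.19) and Cav1 (0.16), caveolins also known from endothelium and fibroblasts, were higher. Mean Cav1 was 177 CPM in control samples, against 149 CPM for Cav3, and which cells made it was not tested. Read over the caveolar coat, a grouping chosen after the values were seen, the muscle genes Cav3 and Cavin4 were lower, 4 of the 5 other genes (Cav1, Cav2, Cavin2 and Cavin3) were higher, and Cavin1 did not pass (-0.06, SE 0.06, adjusted p = 0.608). Of those 4, Cav1 and Cavin2 held with DESeq2 and in each of the 6 fits that left out a sample, whereas Cav2 held in 2 of these fits and Cavin3 (0.14) in none, and neither passed with DESeq2.

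Of 15 tested signalling genes, 3 were higher and 3 lower, with a median of 0.07. The lower count was 1 without control 2 or control 3, with total counts alone and with a filter of 1 CPM. Il4ra, the receptor subunit for a cytokine that recruits myoblasts to nascent myotubes, rose by 0.40, the growth factor gene Igf1 by 0.29 and Rnd3 by 0.10. Gdf11, a TGF-beta family ligand, fell by 0.20, and Nfatc3, a calcineurin target, and Il13ra1, a cytokine receptor subunit, each by 0.14. Il4ra, Igf1 and Gdf11 passed in each of the 6 fits that left out a sample, Nfatc3 and Il13ra1 in 2 and Rnd3 in 1.

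Of the 25 genes of terminal differentiation, which fusion accompanies, 14 were lower and 2 higher, with a median of -0.16. The lower count was 9 without control 1 and 19 without cKO 1, and the higher count 1 without control 2 or cKO 3. The largest falls were in Ttn, which encodes the giant sarcomere protein titin (-0.46), the myosin light chain gene Myl4 (-0.36), the thin filament gene Neb (-0.33) and the transcription factor gene Mef2c (-0.31), beside Myog as given above. Cdkn1c, a cell cycle inhibitor, rose by 0.46 and Tnnt1, the slow troponin T, by 0.16. The fusogens, at -0.24 and -0.29, lay within the span of all 25 genes (-0.46 to 0.46), of which 9 did not pass.

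**Figure D4:**
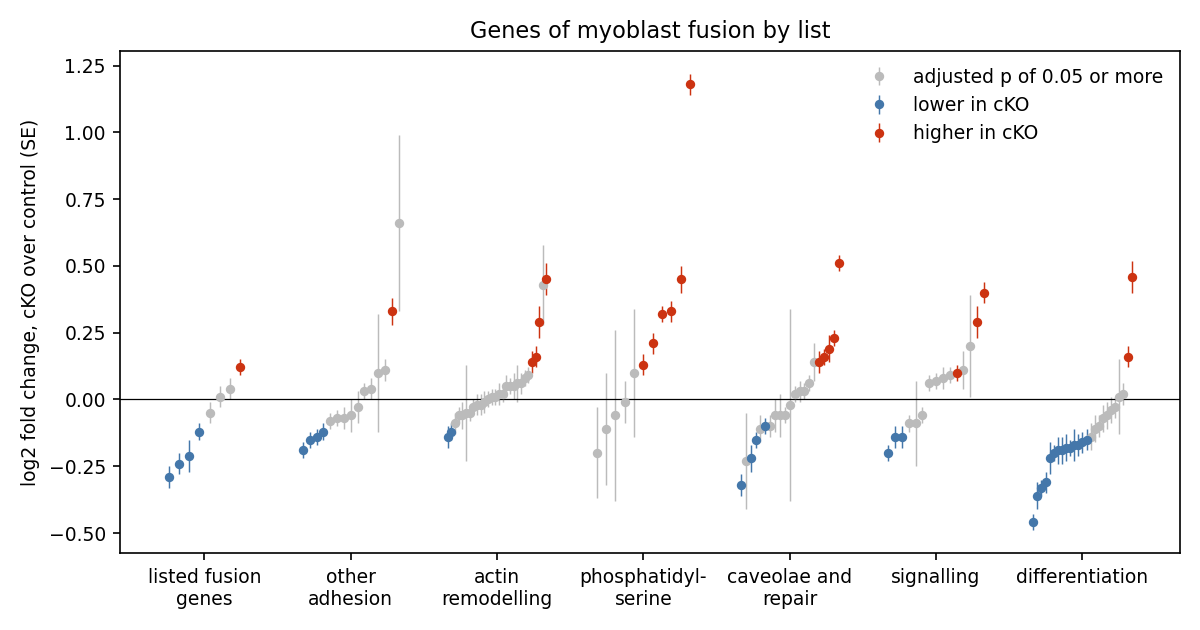
Log2 fold change of cKO over control with its SE for each tested gene of the 10 fusion genes, of the 5 lists of other fusion genes and of the differentiation list, ordered by size within a list (red, higher; blue, lower; grey, adjusted p of 0.05 or more). The called genes of the phosphatidylserine list are all higher (6 of 11), those of differentiation mostly lower (14 of 25), and the remaining lists hold both.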

How the data were processed

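RNA was measured in 6 cultures of sorted satellite cells, 3 control and 3 cKO, called independent RNA samples in the methods. Whether each came from a separate mouse is not stated, so p-values measure the spread between these samples. Libraries were stranded total RNA from 400 ng with ribosomal depletion, read as single 75-base ends. Per the submitters' processing notes, the authors aligned reads to mm10 with Bowtie2 2.3.4.2 and counted them on genes with featureCounts 1.6.3, which gave the raw counts they deposited. Bowtie2 does not split reads, so reads over exon junctions are missing. The deposited tables of normalized values and of the authors' own comparison (fold changes, p-values) were not used.

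Genes were tested with edgeR 4.0.16 in R 4.3.3 (filterByExpr, TMM scaling, quasi-likelihood test on genotype, adjusted p under 0.05 by the Benjamini-Hochberg method), checked on simulated counts with 200 changed genes. CPM are counts per 1000000 counts of a sample, without TMM scaling. Coordinates and lengths came from GENCODE M21, which held all 55536 identifiers. Alternatives were DESeq2 1.42.0, other scalings and filters, a replicate block and leaving out each sample. Same-numbered samples did not deviate together (correlations -0.015 to -0.004). Between-sample variation was 3.92%, and 3 counts was taken as the floor of a library, for counting error only.

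The 10 genes and the lists, written by hand, were chosen with earlier results of these data known. Named are the 10 genes, Hira, up to 4 called genes of each list and direction with the largest fold change, the 3 genes most like each fusogen, and markers beside a result; Myog, the overlapping antisense genes and the caveolar coat genes were named after their values were seen. Promoters were available for 5 of the 10 genes. Python 3.11.15, pandas 2.3.3 and matplotlib 3.10.9 were used for summaries and plots.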

Additional observations from a re-analysis of the deposited data

How the results depend on the processing

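Over 12 alternatives for each of the 8 tested fusion genes (96 values), 84 kept direction and side of the threshold, 9 lost the call, 1 gained it (Dysf without cKO 1) and 2 turned sign. The sign turned for Jam3 (-0.03 without control 3 and -0.02 without cKO 1; range 0.03 to -0.03), a gene with no call. The count of lower fusion genes was 4 and ranged from 2 to 5 when 1 sample was left out, and that of higher ones from 0 (without control 1) to 1. DESeq2, without Cav3, and total counts alone, without Jam2, left 3 lower. Among other fusion genes, 13 were lower, 7 with total counts alone and 7 to 14 with 1 sample left out. Over all genes, 1448 were lower (917 to 1671 with 1 sample left out; 917, 934 and 960 without control 1, 2 and 3). Calls were higher in 59.2% of 3549 with TMM and in 70.0% with total counts alone. With a replicate block, 1901 genes were higher and 1251 lower, and 1 fusion gene higher and 4 lower. The labels do not state whether the replicate numbers pair the samples. The fusogen ratio differed by -0.22 to -0.15 with 1 sample left out. Depth limits Adgrb1 and Adgrb3 alone of the 10 genes.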
